A study of Mus musculus and Rattus norvegicus with 53 samples.

Results

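The semaphorin, plexin, Slit and netrin families make up the classic guidance cues and receptors of growing axons. They were taken from the mouse count tables by symbol: semaphorins of classes 3 to 7, plexins A to D, both neuropilins, Slits, Robos, netrin 1 and netrin 4, and the netrin receptors Dcc, Neo1 and Unc5a to Unc5d. The rule found 45 of 24016 listed genes. By role these are 7 class 3 semaphorins, 13 membrane semaphorins, 9 plexins, 2 neuropilins, 3 Slits, 3 Robos, 2 netrins and 6 netrin receptors. In the pooled nerves 40 of them had enough counts to be tested, and in the single nerves 41. Dcc, Robo3, Slit1 and Unc5d passed the filter on low counts in neither experiment, and Unc5c passed it only in the single nerves. Over all pooled and all single-nerve libraries Dcc had 19 and 0 counts, Robo3 0 and 4, Slit1 3 and 45, and Unc5d 0 and 7.

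Semaphorins signal through plexins, and the secreted class 3 members mostly need a neuropilin as the ligand-binding part of the receptor. Slits act on Robo receptors, whereas netrins act through Dcc and neogenin or, with the opposite effect on growth cones, through the Unc5 receptors. In peripheral nerve the same families steer axons and the Schwann cells (SCs) that guide them across a cut, and Sema4f is known as a molecule that helps to hold SCs to axons.

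SCs were sorted for tdTomato from adult male and female mice that carried a Cre transgene and a Rosa26 tdTomato reporter. All groups share this genotype, and the label follows cells in which Cre was active at any time, which need not be every SC. The sciatic nerve of one side was transected, and cells came from the contralateral intact nerve (iSCs), from the bridge that forms between the stumps (bSCs) and from the distal stump (dSCs). In the pooled experiment nerves of 3 mice were combined in each library, 6 days after transection, with 4 libraries per region. In the single-nerve experiment there were 5 iSC libraries by the labels. The study's text gives 4 intact single nerves, left after it removed datasets with few detectable genes. All 5 iSC libraries of the labels were used here, with counts for 10042 to 15060 genes. Some animal labels and titles disagree, so groups follow the labels. Each later day had 3 dSC libraries, on day 1, on day 2 and then every other day from day 4 to day 10, and from day 4 on there were also 3 bSC libraries a day. Levels are CPM values (counts of a gene set on a common library size after TMM scaling), and the experiments were scaled separately.

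Between 11435463 and 22617054 reads were counted on genes per pooled library and between 9240883 and 22426128 per single-nerve library. All 8 Schwann markers had counts in every group. Their summed level was 5060 to 12000 CPM in pooled iSCs, 1400 to 3320 CPM in dSCs and 1420 to 2850 CPM in bSCs. All 10 macrophage markers had counts too, with sums of 185 to 4630 CPM in pooled iSCs, 7800 to 12700 CPM in dSCs and 1860 to 5760 CPM in bSCs. Fibroblast markers (5 of 5) summed to 8660 to 47700 CPM, 28600 to 41400 CPM and 13000 to 26300 CPM in the same order. Mural markers (5 of 5) summed to 229 to 1340, 125 to 182 and 124 to 637 CPM, and endothelial markers (7 of 7) to 128 to 590, 116 to 293 and 151 to 777 CPM. The 4 lymphocyte and neutrophil markers summed to at most 8.05 CPM in any pooled library, with S100a9 at 0 in iSCs and Cd3e and S100a9 at 0 in bSCs. In the single nerves, macrophage sums were 253 to 983 CPM in iSCs against 1880 to 12000 CPM in dSCs and 744 to 10700 CPM in bSCs of days 4 to 10. Endothelial sums were 1360 to 3590, 227 to 1620 and 225 to 2770 CPM in the same order, Schwann sums 1230 to 5300, 1110 to 3140 and 185 to 3530 CPM, mural sums 735 to 3950, 475 to 2380 and 473 to 2240 CPM, and fibroblast sums 20500 to 26900, 17900 to 40900 and 12600 to 44100 CPM. Lymphocyte and neutrophil sums were highest on day 1, at up to 103 CPM. The part of these cell types in the results was not tested. In bulk libraries fewer cells of a type and less RNA per cell cannot be told apart.

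Some libraries stood apart. In 4 single-nerve libraries the ribosomal precursor gene Rn45s took over 15% of the counts: iSC replicate 0 (33.8%), iSC replicate 1 (37.5%), dSC day 1 replicate 1 (17.3%) and dSC day 2 replicate 0 (38.6%). The dSC and bSC libraries of day 4 replicate 1, which the labels give to the same animal, were nearly alike, with a chi-square per degree of freedom of 3.784 against at least 42.48 for any other pair of single-nerve libraries. The comparisons over days 4 to 10 and the time course of dSCs were also fitted without them, and values for single days are given only with them. Among pooled iSCs, replicate 5 had the highest fibroblast sum (47700 CPM) and the highest macrophage sum (4630 CPM).

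Per kilobase of exon, which allows levels of different genes to be compared, Sema3b led the guidance genes of pooled iSCs at 308 ± 102 CPM per kb (SD, n = 4). Sema3b encodes a secreted semaphorin that acts through neuropilins. Next in pooled iSCs came the receptor subunit Nrp1 at 22.4 ± 15.2 CPM per kb and then Sema6d at 20.3 ± 6.61 CPM per kb, which do not differ beyond their spread. In pooled dSCs the order was Nrp1 (78.0 ± 22.2 CPM per kb), Sema3b (37.3 ± 21.2), Sema3c (19.4 ± 6.67), Plxnb2 (17.1 ± 8.13) and Sema4f (13.4 ± 7.12), of which the last 3 overlap within their SDs. In pooled bSCs Sema3b (56.3 ± 22.0 CPM per kb) and Nrp1 (52.5 ± 22.8) led with no gap beyond their spread, followed by Sema4f (22.7 ± 18.8). Single iSCs had a flatter order, with Nrp1 at 55.7 ± 43.7 CPM per kb and Sema3b at 48.4 ± 50.8 (SD, n = 5).

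**Figure D1:**
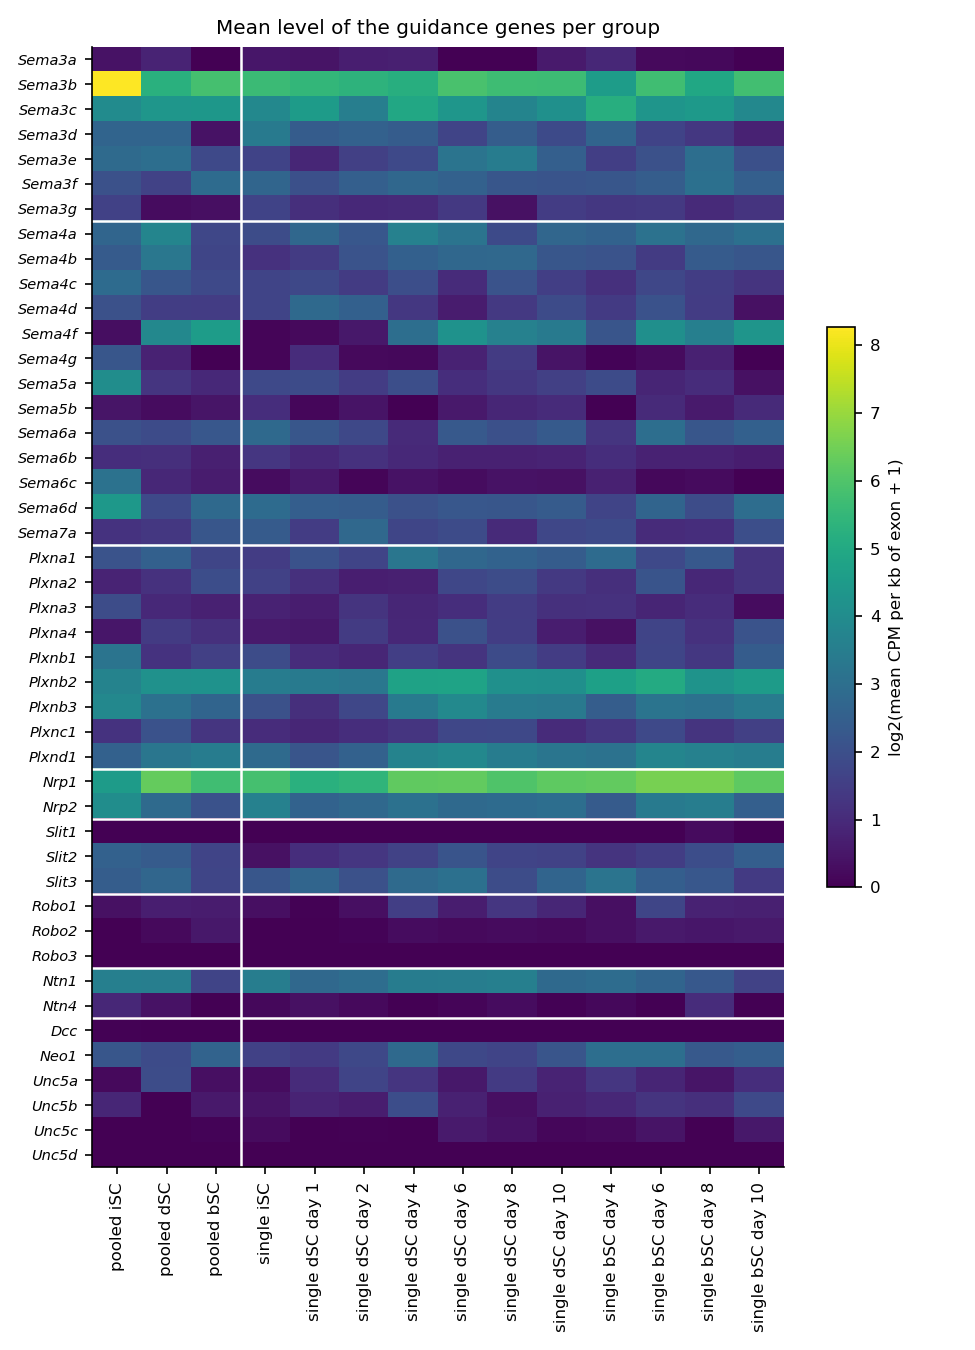
Mean level of each of the 45 guidance genes (rows, in order of role, separated by white lines) in each group of libraries (columns), as log2 of mean CPM per kilobase of exon plus 1 (colour). Sema3b in pooled iSCs is the brightest cell at 308 CPM per kb, Nrp1 and Sema3b are bright in every column, and the row of Sema4f is dark in both iSC columns and on days 1 and 2.

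The pooled nerves were compared by region, dSCs and bSCs each against iSCs and against each other. The differences are between sorted libraries, which also hold the macrophage and fibroblast markers given above. In dSCs against iSCs, 5 of 40 guidance genes were called, meaning that the Benjamini-Hochberg adjusted p of edgeR's quasi-likelihood test was under 0.05, where 5.32% of all 13751 tested genes passed. Sema4f and Nrp1 rose (background 2.63% higher) and Sema3b, Sema6d and Nrp2 fell (background 2.69% lower). In bSCs against iSCs, 7 of 40 passed where 14.7% of all genes did. Sema4f rose (background 7.24%) and Sema3b, Sema4g, Sema5a, Sema6d, Nrp2 and Ntn4 fell (background 7.46%). In bSCs against dSCs, 2 of 40 passed where 5.43% of all genes did, Sema4g and Sema4b, both lower (background 3.11% lower and 2.31% higher). The median log2 fold change of the tested guidance genes was -0.02 in dSCs against iSCs, as over all genes (-0.02), and -0.87 in bSCs against iSCs, where all genes had -0.16. In bSCs against dSCs it was -0.48, where all genes had -0.07. Both dSCs and bSCs were compared with the same iSC libraries.

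With the pool number of the labels as a replicate block, which pairs libraries that share a pool, fewer guidance genes and fewer of all genes passed. Pool 4 holds only iSC replicate 4, which then adds nothing to the comparisons, and pool 3 holds no iSC library. In dSCs against iSCs 2 remained, Sema4f and Sema3b (all genes 2.09%). In bSCs against iSCs 4 remained, Sema4f, Sema3b, Sema4g and Nrp2 (all genes 7.04%). In bSCs against dSCs none did by edgeR, with 7 at an unadjusted p under 0.05 (all genes 18.9% at that p and 1.72% after adjustment), whereas DESeq2 without the block called 4 (all genes 14.1%). Libraries of the groups did not overlap for 5 guidance genes higher and 8 lower in dSCs than in iSCs (all genes 7.56% and 9.41%), for 1 higher and 10 lower in bSCs than in iSCs (10.5% and 14.5%), and for 0 higher and 7 lower in bSCs than in dSCs (6.77% and 8.62%). Without iSC replicate 5, which had the highest fibroblast and macrophage sums, 5 passed in dSCs against iSCs (all genes 7.37%) and 7 in bSCs against iSCs (all genes 15%), with Nrp1 in place of Ntn4.

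**Figure D2:**
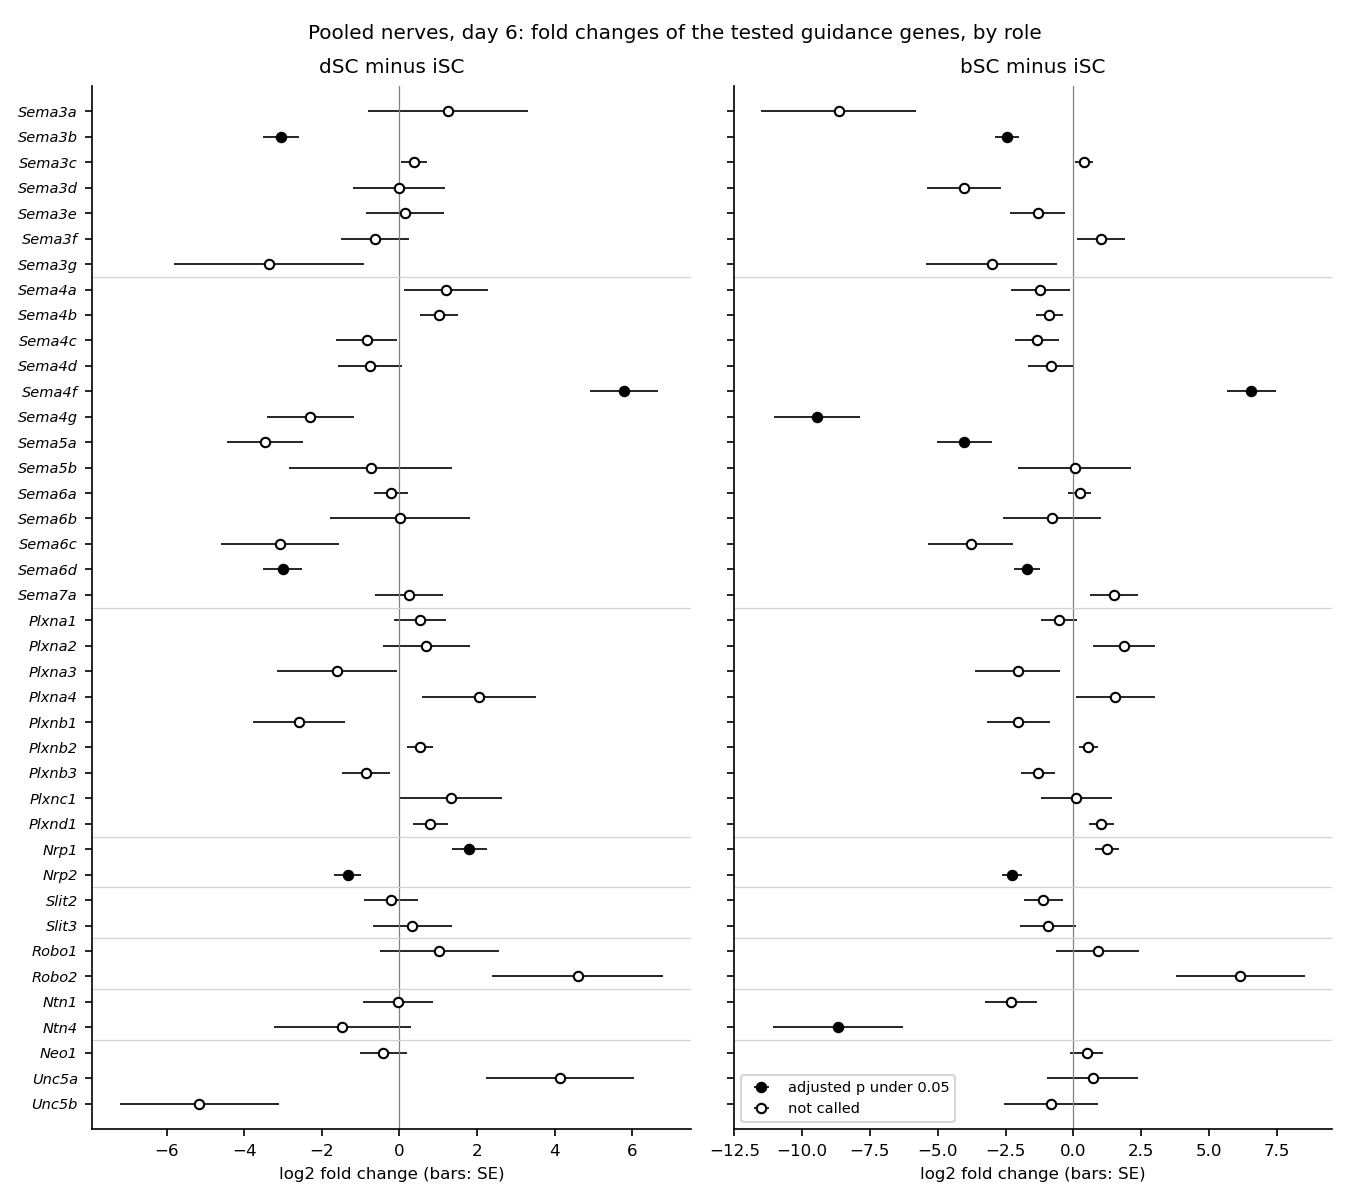
Log2 fold change of each of the 40 tested guidance genes (rows, in order of role) in pooled dSCs minus iSCs (left) and bSCs minus iSCs (right). Bars are the standard error, filled points passed an adjusted p under 0.05 and open points did not. Sema4f stands alone on the right of both panels among the filled points of the semaphorins, at 5.79 and 6.55, and the other filled semaphorins lie to the left.

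Of the 7 class 3 semaphorins, Sema3b (chr9:107500005-107511560, minus strand, mm9) was the only one to pass in either pooled comparison with iSCs. Its levels in the pooled iSC libraries were 1231, 1734, 1534 and 737 CPM. In dSCs they were 172, 52.25, 271 and 139 CPM, and in bSCs 164, 178.5, 369 and 246 CPM. Every injured library lay below every intact one. Against iSCs the log2 fold change was -3.05 in dSCs (SE 0.47, adjusted p = 0.00254 from edgeR) and -2.45 in bSCs (SE 0.46, adjusted p = 0.00324). With the pool block these were -3.37 (adjusted p = 0.0124) and -2.71 (adjusted p = 0.0128), and the call held in all 14 alternatives of each comparison. bSCs and dSCs overlapped, with a log2 fold change of 0.59 between them (adjusted p = 0.482).

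Sema3b and the Schwann marker sums given above were both lower in pooled dSCs and bSCs than in iSCs. So were Sema5a, Sema6d and Nrp2, and a link was not tested. In the single nerves no difference of Sema3b passed. Levels were 132, 52.7, 125, 587.5 and 130 CPM in the 5 iSC libraries, 144.5 to 325 CPM with a median of 193.5 CPM in the 12 dSC libraries of days 4 to 10, and 46.9 to 530 CPM with a median of 130 CPM in the 12 bSC libraries. These ranges overlap, and the log2 fold changes against iSCs were -0.01 (SE 0.69, adjusted p = 1) in dSCs and -0.39 (SE 0.68, adjusted p = 0.817) in bSCs. The iSC level was lower in the single than in the pooled nerves, on scales set separately.

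The other class 3 semaphorins did not pass in the pooled nerves. Sema3c, a secreted semaphorin at a steady level, lay between 89.1 and 240.7 CPM in all 12 pooled libraries. Sema3a, the founding repulsive class 3 cue, was at 1.73 to 6.59 CPM in iSCs and had no count in any bSC library, at least 17.6-fold lower against a floor of 3 counts per library (0.188 CPM), with an adjusted p of 0.0697 from edgeR. In dSCs it ranged from 0 to 31.4 CPM. Sema3d, a further secreted member, was at 8.80 to 56.9 CPM in iSCs, 17.6 to 72.8 CPM in dSCs and 0 to 5.34 CPM in bSCs, so that every bSC library lay below all others (adjusted p = 0.0616 against iSCs and 0.0967 against dSCs from edgeR). The remaining 3, Sema3e, Sema3f and Sema3g, had log2 fold changes against iSCs from -3.36 to 1.02 in the pooled nerves.

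Of the 13 membrane semaphorins, Sema4f (chr6:82861879-82889763, minus strand, mm9) stood out in both experiments. It was at 2.73, 1.12, 0.682 and 0.403 CPM in pooled iSCs. In dSCs it was at 87.0, 13.85, 88.7 and 85.3 CPM and in bSCs at 34.3, 46.8, 143.5 and 241.5 CPM. The lowest injured library was above the highest intact one, and dSC replicate 2 was far below the other dSC libraries. The log2 fold change was 5.79 in dSCs (SE 0.88, adjusted p = 0.00233 from edgeR) and 6.55 in bSCs (SE 0.91, adjusted p = 0.000573). With the pool block it was 5.05 (adjusted p = 0.0336) and 5.87 (adjusted p = 0.0124). Between bSCs and dSCs it was 0.76 (SE 0.70, adjusted p = 0.603), within the spread of the libraries.

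The single nerves gave the course of Sema4f over days. In iSCs it had 0, 0, 0.211, 2.14 and 0.0510 CPM. On day 1 dSCs had 0, 0 and 2.42 CPM, and on day 2 they had 0, 3.62 and 3.22 CPM. On day 4 the level was 60.4, 29.95 and 15.6 CPM, and from day 6 to day 10 every dSC library lay between 32.6 and 113.8 CPM. All 12 dSC libraries of days 4 to 10 were above all iSC libraries, while days 1 and 2 overlapped with iSCs. In bSCs the 12 libraries ranged from 0.0845 CPM, in day 4 replicate 2, to 222 CPM, in day 10 replicate 3, with a median of 45.8 CPM, and 11 of 12 were above all iSCs. The exception had the lowest Schwann marker sum of all single-nerve libraries, at 185 CPM. The next lowest sums, 526 CPM in bSC day 6 replicate 0 and 551 CPM in bSC day 8 replicate 1, went with Sema4f at 52.6 and 22.95 CPM. A link with the marker sums was not tested.

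Over days 4 to 10 the log2 fold change of Sema4f against iSCs was 6.66 in dSCs (SE 1.32, adjusted p = 0.00315 from edgeR) and 6.63 in bSCs (SE 1.32, adjusted p = 0.00217). In dSCs against iSCs, 2 of 41 tested guidance genes passed, Sema4f and Slit2, both higher (all 15519 genes 5.32%, with 1.84% higher and 3.49% lower). In bSCs against iSCs 3 of 41 passed, Sema4f, Slit2 and Robo2, all higher (all genes 9.34%, with 2.58% higher and 6.75% lower). Without the 4 libraries with most Rn45s, Sema4f still passed, with 6.11 in dSCs (adjusted p = 0.0123) and 6.05 in bSCs (adjusted p = 0.00759), and without the matching day 4 libraries it was 6.72 and 6.46. It passed in all 23 alternatives of each comparison in which it was tested. Without iSC replicate 4, the iSC library with the highest level, the values were 9.19 and 9.13 (adjusted p = 0.000928 and 0.000713). The stricter filter of the study, 100 counts or more in 85% of single-nerve libraries, keeps 11 of the 45 genes and drops Sema4f, Slit2 and Robo2.

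Sema4f was also the only guidance gene to pass the test across all 7 time points of iSCs and dSCs (1 of 41, all genes 0.767%, adjusted p = 0.0125 from edgeR). Without the 4 libraries with most Rn45s it was still the 1 gene to pass (adjusted p = 0.0464, all genes 0.535%). Against iSCs, the log2 fold change in dSCs was 0.53 on day 1 (adjusted p = 1) and 2.13 on day 2 (adjusted p = 0.650). On day 4 it was 6.03 (adjusted p = 0.0155), and on days 6, 8 and 10 it was 7.39, 6.75 and 6.48 (adjusted p = 0.00930, 0.0214 and 0.0304 from edgeR). Between 0.18% and 1.73% of all genes passed on these days (0.445% on day 2, 0.554% on day 6, 0.303% on day 8 and 0.354% on day 10). In bSCs it was 5.07, 7.27, 6.69 and 7.49 on days 4, 6, 8 and 10 (adjusted p = 0.0423, 0.00653, 0.0232 and 0.00614 from edgeR, all genes 1.57%, 1.33%, 0.303% and 1.3%). On single days, 0 of 41 passed between bSCs and dSCs by edgeR, with 1, 1, 2 and 4 at an unadjusted p under 0.05 on days 4, 6, 8 and 10. Of all genes 2.45%, 7.25%, 2.72% and 6.59% were under that p on these days, and 0% on days 4 and 8, 0.00644% on day 6 and 0.0129% on day 10 passed after adjustment. No guidance gene passed for a region by day interaction (0 of 41, all genes 0%, edgeR), with 2 at an unadjusted p under 0.05 (all genes 3.14%), and DESeq2 called 0 of them as well.

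**Figure D3:**
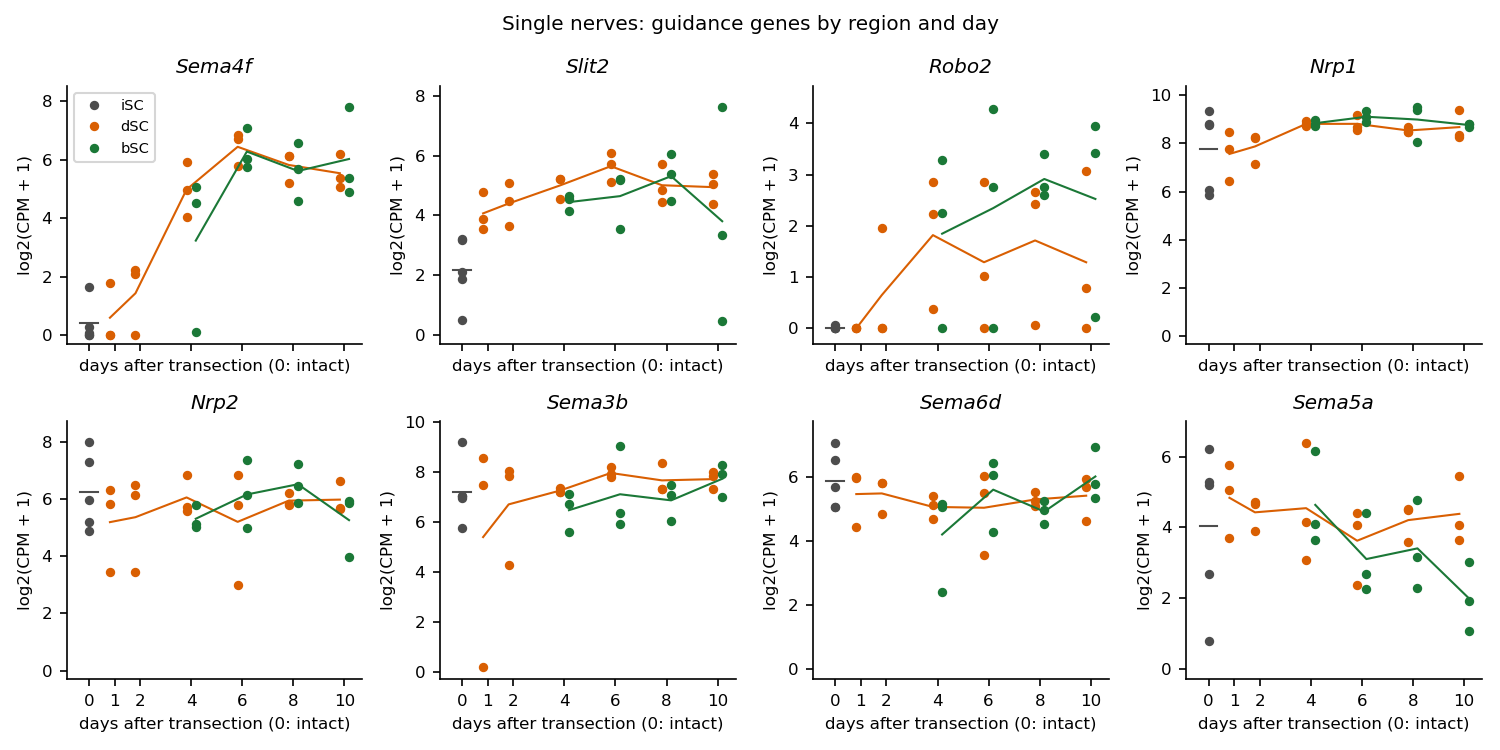
Levels of 8 guidance genes in each single-nerve library as log2 of CPM plus 1, against days after transection, with intact nerves at 0. Points are libraries (grey iSCs, orange dSCs, green bSCs) and lines join group means. Sema4f lies near 0 in intact nerves and rises from day 4, Slit2 is above intact from day 1 in dSCs, Robo2 is scattered between 0 and 18.5 CPM after injury, and the ranges of the other 5 genes overlap between intact and injured nerves.

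Sequences upstream of the genes that were higher after injury in the single nerves are shown because these members share that direction. Windows from 250 bases before to 50 after a RefSeq start (GRCm38.p6, another build than that of the counts) were available for 36 of the 45 genes, and 4 short motifs were searched on both strands. The 36 have 49 windows. TGANTCA (AP-1) was present in 3 of the 49 and in 7.81% of all 32851 windows, CACGTG (E-box) in 4 and in 7.15%, GGAATG (TEAD) in 4 and in 14.7%, and ACAAAG (SOX) in 8 and in 18.7%. The motifs do not overlap each other in the windows below, where capitals mark a match and sequences read 5′ to 3′ on the strand of the gene. The window of Sema4f is chr6:82939720-82940019 (minus strand), with a single SOX match on the opposite strand. That of Slit2 is chr5:47982905-47983204 (plus strand), with none of the 4 motifs. Robo2 has 3 windows, of which one holds a TEAD match and one an E-box match. The one with none of the 4 motifs, chr16:74411776-74412075 (minus strand), is shown.
Sema4f: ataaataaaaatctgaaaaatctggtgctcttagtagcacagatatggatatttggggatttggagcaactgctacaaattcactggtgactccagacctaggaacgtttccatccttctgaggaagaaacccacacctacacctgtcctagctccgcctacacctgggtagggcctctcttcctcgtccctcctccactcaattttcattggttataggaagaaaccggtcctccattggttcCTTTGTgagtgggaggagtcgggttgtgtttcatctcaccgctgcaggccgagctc
Slit2: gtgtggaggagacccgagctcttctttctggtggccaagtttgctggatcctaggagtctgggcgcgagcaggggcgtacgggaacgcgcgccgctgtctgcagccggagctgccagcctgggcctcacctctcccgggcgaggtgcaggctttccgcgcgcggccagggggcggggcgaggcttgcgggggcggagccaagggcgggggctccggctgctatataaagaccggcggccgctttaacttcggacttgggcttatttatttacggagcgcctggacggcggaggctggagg
Robo2: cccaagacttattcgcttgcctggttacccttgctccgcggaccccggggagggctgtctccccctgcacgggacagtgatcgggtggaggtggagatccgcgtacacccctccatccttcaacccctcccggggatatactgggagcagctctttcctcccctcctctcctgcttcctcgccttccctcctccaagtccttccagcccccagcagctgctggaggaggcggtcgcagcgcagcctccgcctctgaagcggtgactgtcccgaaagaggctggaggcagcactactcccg

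The other called membrane semaphorins fell after injury or differed between the injured regions. Sema6d (chr2:123915705-124493506, plus strand), a transmembrane ligand of A plexins, was at 246, 289, 195 and 127 CPM in pooled iSCs. It was at 13.0, 14.1, 35.0 and 43.9 CPM in dSCs and at 105, 53.25, 27.0 and 74.6 CPM in bSCs, all below the lowest iSC library. The log2 fold change was -3.01 in dSCs (SE 0.50, adjusted p = 0.00398 from edgeR) and -1.72 in bSCs (SE 0.48, adjusted p = 0.0287). With the pool block neither passed, with -3.04 (adjusted p = 0.0659) and -1.8 (adjusted p = 0.120). The call in bSCs was also lost without any one of iSC replicates 1, 2 and 4 or bSC replicates 2, 3 and 5. In single nerves Sema6d was at 31.9 to 132 CPM in iSCs, 10.8 to 64.4 CPM in dSCs and 4.31 to 119.5 CPM in bSCs of days 4 to 10, overlapping ranges with log2 fold changes of -0.80 and -0.72 (adjusted p = 0.328 and 0.362 from edgeR). Without the 4 libraries with most Rn45s these were -0.84 and -0.80 (adjusted p = 0.450 and 0.387).

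Sema5a (chr15:32174568-32626096, plus strand), a transmembrane semaphorin with thrombospondin repeats, was at 235, 258, 162 and 94.0 CPM in pooled iSCs. In dSCs it was at 8.19, 22.9, 19.2 and 17.8 CPM and in bSCs at 34.3, 2.05, 0.172 and 9.14 CPM. All injured libraries were below all intact ones. Against iSCs the log2 fold change was -4.03 in bSCs (SE 1.01, adjusted p = 0.0171 from edgeR), and with the pool block -4.43 (adjusted p = 0.0618). In dSCs it was -3.46 (SE 0.98) with an adjusted p of 0.0596. In the single nerves the log2 fold change was -0.53 in dSCs (adjusted p = 0.759) and -1.48 in bSCs (adjusted p = 0.181), and without the 4 libraries with most Rn45s the bSC value was -2.15 and passed (adjusted p = 0.0409 from edgeR).

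Sema4g (chr19:45063591-45077887, plus strand), a class 4 transmembrane semaphorin, was lowest in the bridge. It was at 19.4, 22.6, 15.9 and 13.0 CPM in pooled iSCs and at 6.66, 0.336, 1.92 and 5.52 CPM in dSCs. In bSCs it had 1 count in replicate 3 (0.0859 CPM) and 0 in the other 3 libraries. The 3 groups did not overlap. From summed counts the level in iSCs was 1260 times that in bSCs (95% interval of counting error 227 to 50000) and that in dSCs was 242 times (42.8 to 9590). The adjusted p from edgeR was 0.00182 against iSCs and 0.0166 against dSCs, and with the pool block 0.0261 and 0.0876. With only dSCs and bSCs in the fit the second call was lost as well. Single-nerve levels of Sema4g were at 0 to 1.53 CPM in iSCs, 0 to 12.4 CPM in dSCs and 0 to 10.1 CPM in bSCs of days 4 to 10, and did not pass. Unlike in the pooled nerves, 7 of 12 of these dSC libraries were above all iSCs. Within animals Sema4g was lower in the bridge in 9 of 10, with a log2 fold change of bSCs against dSCs of -2.25 (SE 1.16, adjusted p = 0.607) without and -4.41 (SE 2.02, adjusted p = 0.301 from edgeR) with the animal as a block. The 9 include the animal of the matching day 4 libraries, at 1.036 CPM in dSCs and 0.676 CPM in bSCs. Several pairs lie near the floor, such as day 4 replicate 0 with 0.388 CPM in dSCs and 0 in bSCs. How many of all genes are lower in as many animals was not counted.

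Sema4b (chr7:87331727-87371280, plus strand), another class 4 member, was at 37.8, 54.1, 47.8 and 47.4 CPM in pooled dSCs and at 3.99, 17.0, 18.7 and 9.79 CPM in bSCs. Pooled iSCs lay mostly between them, at 20.5, 23.1, 32.0 and 16.2 CPM. The dSC libraries were all above both other groups, and bSCs overlapped with iSCs. The log2 fold change of bSCs against dSCs was -1.92 (SE 0.50, adjusted p = 0.0417 from edgeR). The call was lost with the pool block (adjusted p = 0.0877 from edgeR) and with only these groups in the fit. It was also lost without any one dSC library or bSC replicate 2 or 5, when Sema4g alone remained called. In these leave-outs 2.36% to 4.7% of all genes passed, in place of 5.43%. Of the single nerves, 11 of 12 dSC libraries of days 4 to 10 were above all iSCs (6.86 to 46.0 CPM against 0.837 to 10.7 CPM), with a log2 fold change of 1.96 that did not pass (adjusted p = 0.0667).

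The remaining 8 membrane semaphorins did not pass in the pooled nerves. Sema6c, a class 6 transmembrane member, was at 22.9 to 95.2 CPM in pooled iSCs and below that in every dSC (0 to 11.6 CPM) and bSC library (0 to 9.42 CPM), with adjusted p of 0.345 and 0.1249 from edgeR. Sema4a was at 36.2 to 128.8 CPM in pooled dSCs and 0.140 to 33.7 CPM in bSCs without overlap (adjusted p = 0.232). Sema7a, the membrane-anchored semaphorin that can act through integrins, was at 0.887 to 7.95 CPM in pooled iSCs, 3.497 to 5.89 CPM in dSCs and 5.29 to 19.25 CPM in bSCs. Sema4c, Sema4d, Sema5b, Sema6a and Sema6b had log2 fold changes against iSCs from -1.34 to 0.23 in the pooled nerves.

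**Figure D4:**
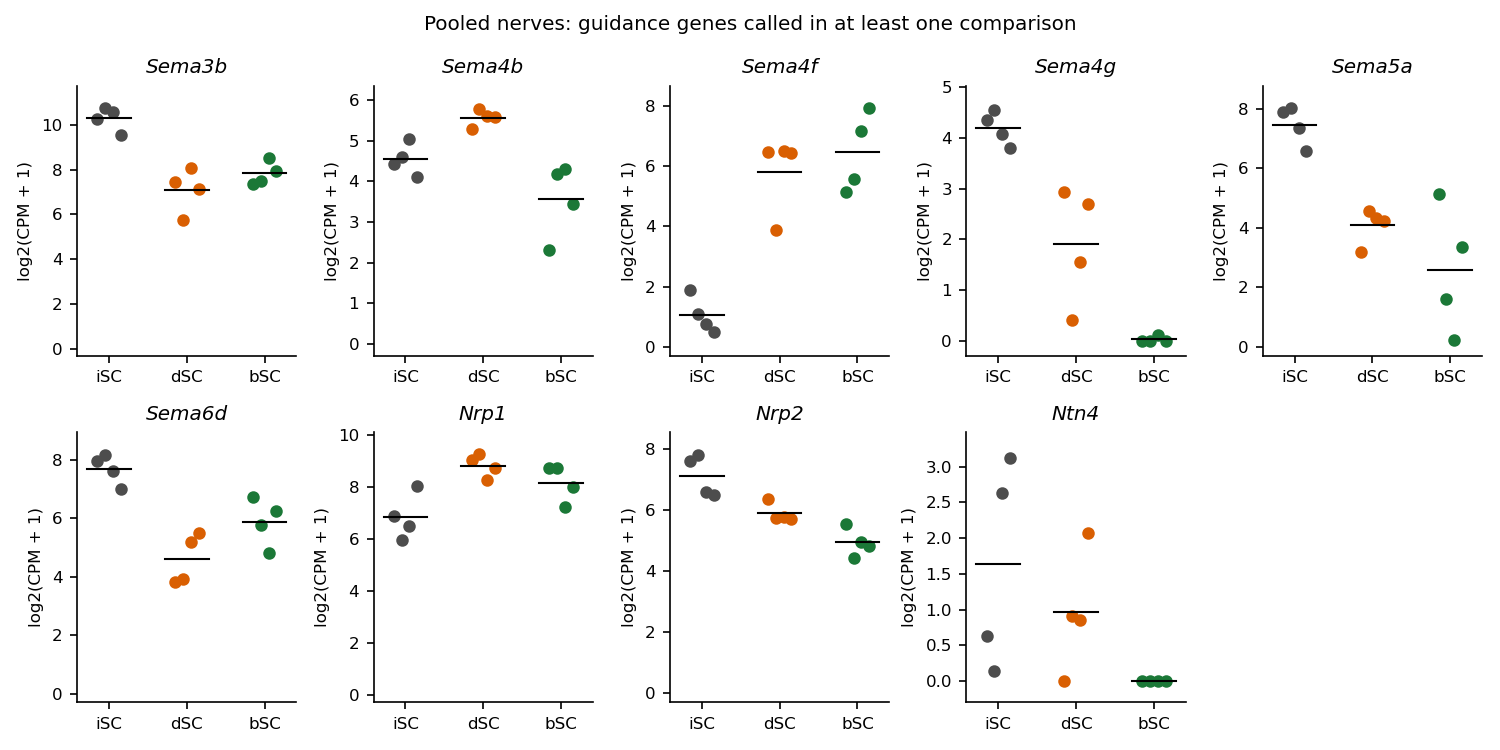
Levels in the 12 pooled libraries, as log2 of CPM plus 1, of the 9 guidance genes called in at least one pooled comparison. Points are libraries and bars the mean of 4. Sema3b, Sema5a, Sema6d and Nrp2 have every iSC library above every dSC and bSC library, Sema4f has every iSC library below them, and Sema4g and Ntn4 lie at or near 0 in bSCs.

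None of the 9 plexins, the signalling receptors of semaphorins, passed in any pooled comparison by edgeR, with log2 fold changes against iSCs from -2.59 to 2.05. Plxnb2, the most abundant plexin per kilobase in dSCs and bSCs, was at 77.4 to 105 CPM in pooled iSCs, 68.3 to 191.5 CPM in dSCs and 90.95 to 182 CPM in bSCs. Plxnb1, a receptor of class 4 semaphorins, was at 37.5 to 109 CPM in pooled iSCs, above all dSCs (0 to 25.2 CPM) and all bSCs (0.673 to 29.3 CPM), with adjusted p of 0.291 and 0.284. Plxna4, a partner of neuropilins for class 3 semaphorins, was at 1.42 to 12.65 CPM in pooled iSCs and 18.02 to 27.2 CPM in dSCs without overlap (adjusted p = 0.597). Plxna1, Plxna2, Plxna3, Plxnb3, Plxnc1 and Plxnd1 had log2 fold changes against iSCs from -2.05 to 1.86.

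The neuropilins moved in opposite directions in the distal stump. Nrp1 (chr8:130882973-131029362, plus strand), which binds class 3 semaphorins and also VEGF, was at 117, 61.3, 88.4 and 262.5 CPM in pooled iSCs. It was at 516.5, 607, 302 and 418 CPM in dSCs and at 419, 422, 147 and 252 CPM in bSCs. The dSC libraries were all above iSCs, while bSCs overlapped with them. The log2 fold change was 1.801 in dSCs (SE 0.46, adjusted p = 0.0370 from edgeR) and 1.23 in bSCs (adjusted p = 0.0832).

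Nrp2 (chr1:62749859-62865269, plus strand), the neuropilin of Sema3f, was at 190, 222, 95.6 and 89.0 CPM in pooled iSCs. It was at 79.8, 52.2, 53.2 and 50.95 CPM in dSCs and at 45.7, 20.6, 29.6 and 27.0 CPM in bSCs. The 3 groups did not overlap, with iSCs highest and bSCs lowest. The log2 fold change was -1.34 in dSCs (SE 0.36, adjusted p = 0.0468 from edgeR) and -2.28 in bSCs (SE 0.37, adjusted p = 0.00142). Between bSCs and dSCs it was -0.94 (adjusted p = 0.136).

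In bSCs the call of Nrp2 held with the pool block (-2.40, adjusted p = 0.00849) and in all 14 alternatives. In dSCs the block ended the calls of Nrp1 (1.96, adjusted p = 0.104) and Nrp2 (-1.45, adjusted p = 0.0809). Without any one of iSC replicates 1, 2 and 4 or dSC replicates 1, 2 and 5 both were lost. This left 3 called guidance genes in place of 5, where the share of all genes was 2.26% to 3.19% in place of 5.32%. Nrp2 was also lost without dSC replicate 3 (all genes 4.3%). In the single nerves neither neuropilin passed. Nrp1 was at 57.6, 65.1, 433, 447 and 643 CPM in iSCs, where the 2 lowest are the iSC libraries with most Rn45s, and at 304 to 673 CPM in dSCs of days 4 to 10. Nrp2 was at 28.3 to 253 CPM in single iSCs and 6.91 to 115 CPM in dSCs. Without the 4 libraries with most Rn45s the log2 fold changes in dSCs were -0.22 for Nrp1 (adjusted p = 0.801) and -1.27 for Nrp2 (adjusted p = 0.176 from edgeR).

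Among Slits and Robos, Slit2 and Robo2 were called in single nerves. Slit2 (chr5:48374394-48697521, plus strand) encodes a secreted repellent, and Robo2 (chr16:73892551-74412070, minus strand) one of its receptors. Slit2 was at 8.09, 2.69, 0.423, 8.15 and 3.31 CPM in single iSCs. In dSCs it was at 10.6, 13.7 and 26.7 CPM on day 1 and 11.4, 21.3 and 33.05 CPM on day 2, and over days 4 to 10 at 19.7 to 67.4 CPM with a median of 34.8 CPM. All dSC libraries were above all iSC libraries. In bSCs 11 of 12 were above, with a median of 23.1 CPM, and day 10 held both the highest (196.6 CPM, replicate 0) and the lowest library (0.376 CPM, replicate 3).

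Over days 4 to 10 the log2 fold change of Slit2 was 2.99 in dSCs (SE 0.80, adjusted p = 0.0268 from edgeR) and 2.99 in bSCs (SE 0.80, adjusted p = 0.0178). Without bSC day 10 replicate 0, which had the highest level, the bSC value was 2.05 (adjusted p = 0.0447). By single days Slit2 passed in bSCs on day 10 (3.92, adjusted p = 0.0298 from edgeR). There replicates 0, 2 and 3 were at 196.6, 9.04 and 0.376 CPM, of which the last lay below all iSCs. The value of that day was not fitted without replicate 0. Libraries of the groups did not overlap for 2 guidance genes in dSCs against iSCs, Sema4f and Slit2 (all genes 1.22% higher and 0.696% lower), and for 0 in bSCs against iSCs (all genes 0.599% higher and 0.638% lower). The call of Slit2 in dSCs was lost without iSC replicate 1 or iSC replicate 5, leaving 1 called guidance gene in place of 2 (all genes 2.78% and 4.51%, in place of 5.32%). Without the 4 libraries with most Rn45s, 2 of which are iSCs, it was 3.22 in dSCs (adjusted p = 0.0815) and 3.20 in bSCs (adjusted p = 0.0554), and neither passed. The bSC call was also lost with only these groups in the fit. Without the matching day 4 libraries both passed, at 3.09 and 3.00 (adjusted p = 0.03695 and 0.0280). In the fit without the Rn45s libraries, Sema3d (-3.01, adjusted p = 0.0101) and Sema5a passed in bSCs.

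In the pooled nerves Slit2 did not pass. It was at 85.1, 96.3, 92.8 and 20.9 CPM in iSCs, 91.65, 52.9, 61.75 and 47.1 CPM in dSCs and 93.9, 5.49, 23.1 and 14.5 CPM in bSCs, overlapping ranges with log2 fold changes of -0.22 (SE 0.70, adjusted p = 0.944) and -1.11 (SE 0.71, adjusted p = 0.346 from edgeR). The dSC and bSC levels of the experiments overlapped, and the iSC levels did not (20.9 to 96.3 CPM against 0.423 to 8.15 CPM, on scales set separately).

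Robo2 was at 0 in 4 of 5 single iSC libraries, with 1 count in replicate 4 (0.0509 CPM). It was at 0 to 7.42 CPM (median 2.37 CPM, 9 of 12 above all iSCs) in dSCs of days 4 to 10 and at 0 to 18.5 CPM (median 5.72 CPM, 10 of 12 above) in bSCs. In dSCs before day 4 it was at 0 in 5 of 6 libraries and at 2.86 CPM in the sixth. From summed counts the level was 205 times that of iSCs in dSCs (95% interval of counting error 36.6 to 8110) and 506 times in bSCs (90.6 to 20000). The adjusted p from edgeR was 0.0264 in bSCs and 0.0583 in dSCs. The call in bSCs was lost without any one of iSC replicates 0, 1, 3 and 5 (adjusted p up to 0.0876), and without the 4 libraries with most Rn45s, and it held without the matching day 4 libraries (adjusted p = 0.0377). In pooled nerves Robo2 was at 0.390, 0, 0 and 0 CPM in iSCs, 4.28, 0, 4.14 and 1.57 CPM in dSCs and 0, 14.0, 4.13 and 11.4 CPM in bSCs, and did not pass (adjusted p = 0.328 and 0.100).

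Slit3, a further secreted Slit, and Robo1, the receptor that it shares with Slit2, did not pass in any comparison. Slit3 was at 9.05 to 45.4 CPM in pooled iSCs and 0.0859 to 58.1 CPM after injury, and Robo1 at 0 to 4.32 CPM in pooled iSCs and 0 to 9.23 CPM after injury.

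Netrins and their receptors gave a single call. Ntn4 (chr10:93103426-93209952, plus strand), a netrin of basement membranes, was at 0.546, 0.102, 5.23 and 7.74 CPM in pooled iSCs and at 0, 0.874, 0.8125 and 3.21 CPM in dSCs. It had no count in any bSC library. Against a floor of 3 counts per library (0.188 CPM) bSCs were at least 18.1-fold lower than the mean of iSCs, with an adjusted p of 0.0354 from edgeR. That mean rests on iSC replicates 4 and 5, and replicate 2 was itself under the floor. The call was lost in 11 of 14 alternatives, among them the pool block (adjusted p = 0.191) and the fits without any one of iSC replicates 1, 4 and 5 or any one bSC library. In the single nerves Ntn4 did not pass. It was at 0 to 1.22 CPM in iSCs, 0 to 1.57 CPM in dSCs and 0 to 10.74 CPM in bSCs of days 4 to 10. Its highest level of both experiments was in bSC day 8 replicate 2, with 152 counts.

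Ntn1, the netrin of classic axon attraction, was at 27.8 to 121 CPM in pooled iSCs, 23.0 to 94.3 CPM in dSCs and 0.0859 to 33.4 CPM in bSCs, with a log2 fold change of -2.29 in bSCs against iSCs that did not pass (adjusted p = 0.128 from edgeR). Neo1, which binds netrins and RGM proteins, was at 8.16 to 78.6 CPM in all pooled libraries. Unc5a, a netrin receptor of the repulsive type, was at 0 to 1.05 CPM in pooled iSCs, 6.5 to 22.6 CPM in dSCs and 0 to 3.95 CPM in bSCs. Its dSC libraries were above those of both other groups, with adjusted p of 0.297 and 0.308. Unc5b was at 1.09 to 13.4 CPM in pooled iSCs and 0 to 0.522 CPM in dSCs, again without overlap (adjusted p = 0.205). In the single nerves it did not pass either and was not lower in dSCs. There 5 of 12 dSC libraries of days 4 to 10 were above all iSCs (0.0624 to 29.05 CPM against 0 to 5.20 CPM). Unc5c, tested in the single nerves, was at 0 to 6.31 CPM in iSCs, 0 to 11.5 CPM in dSCs and 0 to 15.7 CPM in bSCs of days 4 to 10 and did not pass.

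Bridge and distal cells were compared within the single nerves over days 4 to 10. No guidance gene passed (0 of 41, all genes 0.103%, edgeR), with 2 at an unadjusted p under 0.05 (all genes 9.01%), and DESeq2 called 1, Sema3a (all genes 3.73%). Sema3a was near the floor, at 0 to 19.3 CPM in these dSCs and 0 to 27.5 CPM in these bSCs, highest in bSC day 4 replicate 2. It had no count in any dSC library of days 6 and 8, where bSCs were at 0 to 4.715 CPM. For Sema4f the log2 fold change was -0.03 (SE 0.68, adjusted p = 0.9999), for Slit2 -0.00 (SE 0.50, adjusted p = 0.9999) and for Robo2 1.16 (SE 1.13, adjusted p = 0.954). For 10 animals the labels give both regions. With the animal as a replicate block in these 20 libraries, 2 of 41 passed, Plxna1 and Slit2, both lower in bSCs (all genes 1.37%). Both calls were lost without the day 10 animal, when 0 of 41 passed by edgeR (4 at an unadjusted p under 0.05, all genes 10.6%) and 0 of all genes did. One further day 10 bridge library was left out of the block because its labels disagree on its animal.

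Plxna1 (chr6:89266310-89312607, minus strand), a receptor shared by class 3 and class 6 semaphorins, was lower in the bridge in 10 of 10 animals and is named here after its values were seen. The 10 include the animal of the matching day 4 libraries, nearly level at 34.35 CPM in dSCs and 34.19 CPM in bSCs. How many of all genes are lower in every animal, or in 7 of 10, was not counted. In dSCs of days 4 to 10 Plxna1 was at 26.1 to 136 CPM with a median of 47.6 CPM, and in bSCs at 0.430 to 85.9 CPM with a median of 27.5 CPM. The ranges overlap between animals, and the difference appears within them. With the animal block the log2 fold change was -2.27 (SE 0.29, adjusted p = 0.00641 from edgeR), against -0.91 (adjusted p = 0.537) without it. The mean weights the days equally, and day 10 had 1 animal, with 55.8 CPM in dSCs and 0.430 CPM in bSCs. Without this animal it was -0.66 (SE 0.24, adjusted p = 0.349), and without any one of the other 9 animals it passed. Slit2 was lower in the bridge in 7 of 10 animals, with -2.05 (SE 0.42, adjusted p = 0.0334) and, in the day 10 animal, 41.2 CPM in dSCs and 0.376 CPM in bSCs. Without that animal it was -0.45 (SE 0.36, adjusted p = 0.730), and the call was also lost without any one of 4 other animals. Without the matching day 4 libraries the block gave -2.31 for Plxna1 (adjusted p = 0.0118) and -2.13 for Slit2 (adjusted p = 0.0481), and 2 of 41 passed (all genes 0.979%).

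The other genes of these pathways were followed with a list of 44 coreceptors, ligands and cytoplasmic mediators, of which 41 could be tested in the pooled nerves. In dSCs against iSCs 4 of them passed, 2 higher and 2 lower, in bSCs against iSCs 6, 3 higher and 3 lower, and in bSCs against dSCs 3, 2 higher and 1 lower, to be read against the shares of all genes given for the same comparisons. Of 43 tested in the single nerves, 2 passed in dSCs against iSCs, 4 in bSCs against iSCs and, by edgeR, 0 in bSCs against dSCs. Gpc1, a heparan sulfate proteoglycan that binds Slits, rose in both regions. It was at 25.0 to 58.1 CPM in pooled iSCs, 163 to 389 CPM in dSCs and 181 to 616 CPM in bSCs, without overlap. Its log2 fold change was 2.97 in dSCs (adjusted p = 0.00154 from edgeR) and 3.37 in bSCs (adjusted p = 0.000348), and in single nerves 3.44 and 3.06 (adjusted p = 0.00105 and 0.00169).

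Mical3, of the MICAL family that acts on actin downstream of plexins, fell in the order of the regions, from 56.4 to 143.5 CPM in pooled iSCs to 22.45 to 32.6 CPM in dSCs and 4.83 to 14.0 CPM in bSCs. Each pooled difference passed, with log2 fold changes of -1.84 in dSCs (adjusted p = 0.0243), -3.71 in bSCs (adjusted p = 0.000321) and -1.87 between bSCs and dSCs (adjusted p = 0.0244 from edgeR). Dpysl3, a CRMP protein that carries semaphorin signals in the cytoplasm, rose in both regions (1.27 and 1.70). L1cam, an adhesion molecule that can join Nrp1 in its receptor complex, fell in dSCs (-2.03) and was higher in bSCs than in dSCs (1.97), and its close homologue Chl1 fell in bSCs (-1.60). Cdc42, a small GTPase of the actin skeleton, rose in bSCs against iSCs (0.98) and against dSCs (0.90), and the actin-binding Ablim1 fell in bSCs (-1.40). In the single nerves none of these 6 genes passed between iSCs, dSCs and bSCs. Mical3 had log2 fold changes of 0.60 in dSCs and -0.51 in bSCs against iSCs (adjusted p = 0.767 and 0.775), and L1cam 1.38 and 1.58 (adjusted p = 0.396 and 0.288 from edgeR), positive in dSCs where the pooled values were negative. With the pool block, 1 of 41 passed in dSCs against iSCs, Gpc1 (3.04, adjusted p = 0.00776 from edgeR), while Dpysl3, L1cam and Mical3 did not (adjusted p = 0.0777, 0.0947 and 0.146). In bSCs against iSCs 5 passed, among them Gpc1 (3.41, adjusted p = 0.00295), Mical3 (-3.72, adjusted p = 0.00919) and Dpysl3 (1.78, adjusted p = 0.0167), while Cdc42, Ablim1 and Chl1 did not (adjusted p = 0.0537, 0.0871 and 0.168). In bSCs against dSCs 1 did that had not been called without the block, while Cdc42, L1cam and Mical3 did not (adjusted p = 0.0636, 0.0849 and 0.0912).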

How the data were processed

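RNA from sorted tdTomato-positive cells was amplified and sequenced by Smart-seq2 in 47 mouse libraries (12 pooled, 35 single-nerve). The authors aligned reads to mm9 with TopHat2 2.0.11, used HTSeq to count reads over genes, and deposited raw counts for each lane. Strand and annotation are not given in the sources used here. Lanes of a library were summed (8 pairs, chi-square per degree of freedom at most 1.276), and 92 spike-ins and 5 HTSeq categories were set aside. Reads without a feature were 53.774% to 60.528% of unique reads in pooled and 52.526% to 59.569% in single-nerve libraries. Median depth was 13527755 counts in pooled and 13149913 in single-nerve libraries.

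Each experiment was fitted once in R 4.3.3 with edgeR 4.0.16 (TMM, filterByExpr, quasi-likelihood test, Benjamini-Hochberg, adjusted p under 0.05), tested on simulated data. DESeq2 1.42.0, other filters, lane, blocks and left-out libraries were alternatives. P-values measure the spread between libraries. PCR reads are not independent molecules, so intervals and floors of 3 counts cover counting error only. Pool numbers and animals come from the labels. Deviations of libraries that shared a pool number correlated at -0.129 to 0.0802 (mean -0.0143), and those of different pools at -0.0861 to 0.131 (mean 0.00448). Those of the 10 animals correlated at -0.0624 to 0.677 (mean 0.157), and those of different animals at -0.482 to 0.186 (mean -0.0601). The value of 0.677 is that of the matching day 4 libraries, which raises the mean, and the next highest is 0.368.

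Per-library values are given for the 11 members called in a pooled comparison or a single-nerve comparison of regions, and ranges by role for the others. Of a list of 44 partner genes, those called in a pooled comparison are named. Members and lists were chosen with earlier results of these data known. Exon lengths and positions came from an mm9 annotation, promoter windows from RefSeq.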

Additional observations from a re-analysis of the deposited data

Results flagged for a closer look

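Of 43 groups of 4 to 10 libraries tested, 9 held a library far from the others by Dixon's criterion at 95%. For normally distributed values chance gives about 1 in 20, a share that need not hold for CPM near 0. Where all other libraries are at 0, any count gives the largest ratio, 1. This was so for Robo2 in pooled and single iSCs and for Sema4g in pooled bSCs. In pooled iSCs Robo2 was at 0.3899 CPM in replicate 1 and 0 in the others, and Slit2 was at 20.89 CPM in replicate 5 against 85.08 to 96.34 CPM. In pooled dSCs Sema4f was at 13.85 CPM in replicate 2 against 85.34 to 88.7 CPM, and Nrp2 at 79.79 CPM in replicate 1 against 50.95 to 53.18 CPM. In pooled bSCs Sema4g was at 0.08594 CPM in replicate 3 and 0 in the others. The remaining 4 were all iSC replicate 4 of the single nerves. There Sema3b was at 587.5 CPM against 52.73 to 132 CPM, Sema4f at 2.138 CPM against 0 to 0.2113 CPM, Sema4g at 1.527 CPM against 0 to 0.4226 CPM, and Robo2 at 0.05091 CPM against 0.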

How the results depend on the processing

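Over all alternatives 440 values stayed the same, of single genes or of counts of called guidance genes. A gene did so if it kept its call and, where the test has one, its direction. A count did so if it was equal, also at 0, or within 1.5 times. A further 58 gene values kept the direction and lost the call, 38 counts moved by more, and no gene reversed. DESeq2 called 12 guidance genes in pooled bSCs against iSCs (all genes 22.6%), 4 in pooled bSCs against dSCs (14.1%), 6 in single dSCs against iSCs (10.5%) and 1 in single bSCs against dSCs (3.73%). In pooled bSCs against dSCs the count was 1 with no filter on low counts (all genes 3.48%) and 0 with only the groups compared (2.87%). In the latter fit 8 guidance genes had an unadjusted p under 0.05 by edgeR (all genes 18.6%). Under the replicate block by pool, counts were 2 (dSCs against iSCs, all genes 2.09%), 4 (bSCs against iSCs, 7.04%) and 0 (bSCs against dSCs, 1.72%). With the animal as a replicate block, single bSCs against dSCs had 2 (all genes 1.37%), and also 2 without the matching day 4 libraries (0.979%). The count was 0 to 2 when each animal was left out in turn (0% to 1.89%). The study's filter left 0 in single dSCs against iSCs (all genes 9.61%), 0 in bSCs against iSCs (10.1%) and 0 in the time course (1.95%), with 11 genes tested. Without the libraries with most Rn45s, chosen after seeing the data like the other left-out animals and the day 4 libraries, single dSCs against iSCs had 1 (all genes 3.37%). Leaving out each replicate in turn gave 3 to 5 guidance genes in pooled dSCs against iSCs (all genes 2.26% to 7.37%). It gave 5 to 10 in pooled bSCs against iSCs (9.44% to 15%) and 1 to 3 in bSCs against dSCs (2.36% to 5.86%). In the single nerves the counts were 1 to 2 (2.67% to 5.36%), 2 to 4 (6.71% to 8.86%) and 0 to 0 (0% to 0.638%) in the same order. The causes were not tested. Genes listed at or near 0, among them Robo2, Ntn4 and Sema4g, rest on few or no counts in the groups where they are low. Pooled bSC libraries had counts for 11735 to 12606 genes, dSCs for 12432 to 14715 and iSCs for 13600 to 14987. Whether this bears on the zeros in bSCs was not tested.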
